A study of Mus musculus with 6 samples.

Results

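Genes of MHC class I antigen presentation and of the immunoproteasome were compared between ovarian tumours of mice that carried estradiol (E2) pellets and mice that carried placebo pellets. The set was named by symbol and held 10 genes, and a gene counted as measured where the array annotation gave it a probe set of its own. That held for 8 of the 10 (B2m, Tap1, Tap2, Tapbp, Psmb8, Psmb9, Psmb10 and Nlrc5) among 19937 genes in all. H2-K1 and H2-D1, the classical class I heavy chains, share their probe sets with each other and with a further locus in the annotation, so no value is given for them here.

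The tumours grew from MASE2, a culture of ascites cells taken from an E2-treated mouse of the tgCAG-LS-TAg line, in which an adenovirus carrying Cre, injected under the ovarian bursa, turns on the SV40 large and small T antigens in the ovarian surface epithelium. All 6 hosts were SCID mice, which lack mature T and B lymphocytes but keep macrophages and natural killer cells, and all received MASE2 cells together with a pellet, 3 with E2 and 3 with placebo. Tumours were taken at a loss-of-wellness endpoint, and neither the day, the pellet dose nor the age of the mice is given in the labels. The tumour cells of both groups therefore come from the same culture, with T antigen on and with E2 in the donor mouse. Each tumour was run on 1 array, values are log2 intensities summarised by RMA, and a difference of 1 is a 2-fold change.

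Class I molecules show peptides from inside the cell to CD8 T cells and are read by natural killer cells. Proteasomes cut the peptides, the TAP transporter carries them into the endoplasmic reticulum, tapasin and its partners load them, and beta-2 microglobulin completes the molecule at the surface. Interferon gamma raises the whole set, replaces 3 catalytic proteasome subunits by induced ones, and induces NLRC5, the transactivator of class I genes.

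The array of placebo replicate 3 stood apart, and this touches most values below. Its Pearson correlation with the other arrays over all genes, which are not independent replicates, was 0.857 to 0.865, against 0.960 to 0.994 among the others. All 15 intestinal epithelium markers were highest there, with a median level of 10.79 log2 units against 4.39 to 4.73 on the other 5 arrays. Of the 8 class I genes, 7 were also highest on that array, which was the highest array for 27.9% of all genes. The part of the intestinal material in the class I values was not tested, so most comparisons are given with and without that array. The ovarian surface epithelium and mesothelium markers had median levels of 7.61 to 8.06 in placebo tumours and 5.42 to 6.14 in E2 tumours, and Muc16 alone among the 12 lay below the lower quartile of genes (4.22 to 4.39 over the arrays) in all 3 E2 tumours. In whole tumour RNA, fewer cells of a type and less RNA per cell cannot be told apart.

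None of the 8 genes passed the test on 6 arrays. The test was limma, with p adjusted over all genes by the method of Benjamini and Hochberg and a threshold of 0.05, and it called 0.326% of all genes lower and 1.06% higher with E2. At an unadjusted p under 0.05, 2 of the 8 (B2m and Tap1) were lower and 0 higher, beside 6.16% and 10.4% of all genes. Means lay below placebo for 7 genes and above it for Tapbp, with a median change of -0.25 log2 against -0.0087 over all genes. Without placebo replicate 3 the median was -0.028 log2, 2 genes lay above placebo, and 1 of the 8 (B2m) was called lower, where limma called 5.21% of all genes lower and 6.4% higher. For 3 of the 8 (B2m, Tap1 and Psmb8) every E2 tumour lay below every placebo tumour, as for 11.4% of all genes. On each array all 8 genes exceeded that array's lower quartile.

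**Figure D1:**
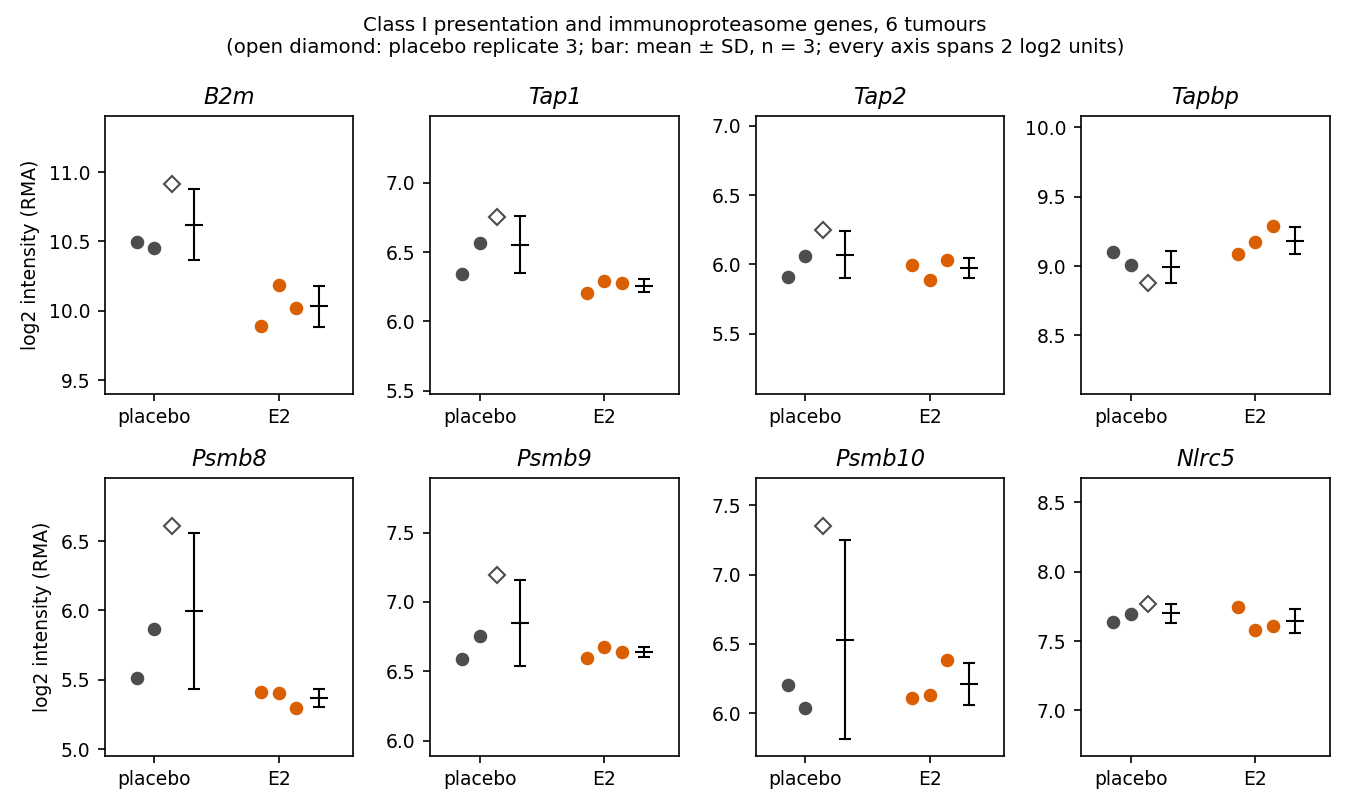
Log2 intensity of each of the 8 measured genes in the 6 tumours, with the mean ± SD (n = 3) of each group and placebo replicate 3 as an open diamond. Each axis spans the same width. The diamond is the highest point in 7 panels and the lowest for Tapbp. All E2 points lie below all placebo points for B2m, Tap1 and Psmb8, as they do for 11.4% of all genes.

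The induced proteasome subunits varied more among placebo tumours than among E2 tumours. Psmb8 encodes beta5i (LMP7), which replaces the chymotrypsin-like subunit. It measured 5.51, 5.87 and 6.61 in placebo replicates 1, 2 and 3 and 5.41, 5.405 and 5.30 in the E2 tumours. Every E2 value lay below every placebo value, and the placebo spread came mostly from replicate 3. The means were 5.996 ± 0.56 with placebo and 5.37 ± 0.066 with E2 (SD, n = 3). The change was -0.63 log2 (SE 0.27, 95% confidence interval -1.29 to 0.044, limma adjusted p = 0.332). It went to -0.32 log2 without placebo replicate 3 (interval -0.60 to -0.034, limma adjusted p = 0.153).

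Psmb9 encodes beta1i (LMP2), the induced form of the caspase-like subunit. Its placebo values were 6.59, 6.76 and 7.19 and its E2 values 6.60, 6.67 and 6.64. The groups overlapped, since placebo replicate 1 lay below all E2 tumours. Psmb9 changed by -0.21 log2 (SE 0.16, interval -0.61 to 0.19, limma adjusted p = 0.553), and by -0.037 without placebo replicate 3. Psmb10 encodes beta2i (MECL-1), the induced form of the trypsin-like subunit. It measured 6.21, 6.04 and 7.35 with placebo and 6.11, 6.14 and 6.38 with E2. Placebo replicate 3 lay 1.23 log2 units above the mean of the other placebo tumours, the largest such gap among the 8 genes. The change of -0.32 log2 (SE 0.35, interval -1.18 to 0.53, limma adjusted p = 0.668) turned to 0.088 without that array (interval -0.18 to 0.36). Leaving out this 1 array thus moved the change of Psmb9 close to 0 and turned that of Psmb10.

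The constitutive subunits that these replace lay on the other side. Psmb5, the constitutive beta5 subunit, measured 7.10, 7.005 and 6.94 with placebo and 7.45, 7.53 and 7.49 with E2, with no overlap. Its change was 0.48 log2 (SE 0.081, interval 0.28 to 0.67) and missed the threshold (limma adjusted p = 0.0600). Psmb6, the beta1 subunit, was 0.34 log2 units higher (limma adjusted p = 0.162) and Psmb7, the beta2 subunit, 0.44 (limma adjusted p = 0.106), both with every E2 tumour above every placebo tumour. With placebo replicate 3 left out, Psmb5 (0.44 log2) and Psmb7 (0.37) rose past the threshold, and Psmb6 differed by 0.29. The changes of Psmb8, Psmb9 and Psmb10 were then -0.32, -0.037 and 0.088 log2, so Psmb10 lay on the same side as Psmb7.

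Each induced subunit was then set against its constitutive partner within an array, and only the change of this log2 difference between arrays carries meaning, since the probes differ. For Psmb8 minus Psmb5 the differences were -1.59, -1.14 and -0.33 with placebo and -2.04, -2.12 and -2.20 with E2. The mean went from -1.02 ± 0.63 to -2.12 ± 0.082 (SD, n = 3), a change of -1.10 log2. For Psmb9 minus Psmb6 they were -1.92, -1.56 and -1.06 with placebo and -2.09, -2.03 and -2.08 with E2, a change of -0.55. All E2 tumours lay below all placebo tumours in both pairs. For Psmb10 minus Psmb7 they were -2.32, -2.38 and -0.89 with placebo and -2.79, -2.66 and -2.44 with E2, a change of -0.77, again with no overlap but with the nearest values only just apart. An exact two-sided permutation test gave p = 0.10 for each of the 3 pairs, also after adjustment over them, and 0.10 is the smallest value that 3 against 3 allows. Without placebo replicate 3 the changes were -0.76, -0.33 and -0.28, so the direction stayed and the sizes were smaller. The exact permutation test then gave p = 0.1, 0.1 and 0.2.

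**Figure D2:**
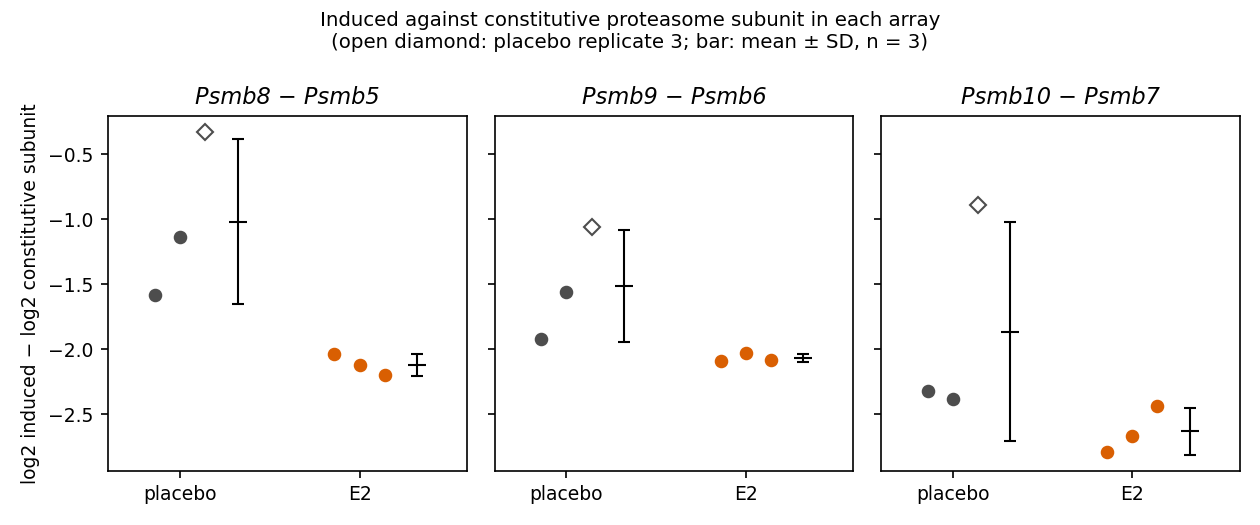
Log2 intensity of the induced subunit minus that of the constitutive subunit it replaces, for each of 6 tumours, with mean ± SD (n = 3) and placebo replicate 3 as an open diamond. E2 tumours lie below placebo tumours in all 3 panels, by -1.10, -0.55 and -0.77 log2 units on average, and the diamond is the highest point of each panel.

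The wider constitutive proteasome lay on the same side as Psmb5 to Psmb7. Of 31 measured subunits of the 20S core and 19S cap, all 31 had higher means with E2, with a median change of 0.37 log2, and 27 had every E2 tumour above every placebo tumour, as 14.9% of all genes did. On 6 arrays limma called 0 of them at the adjusted threshold. At an unadjusted p under 0.05, 25 were higher, beside 10.4% of all genes. On the other 5 arrays the median was 0.34 log2 and 9 of the 31 were called higher, against 6.4% of all genes. Psme1 and Psme2 encode the PA28 activator, which interferon gamma also raises and which opens the proteasome core. Psme1 measured 8.66, 8.30 and 8.76 with placebo and 8.84, 9.07 and 9.25 with E2, and Psme2 measured 7.82, 7.43 and 8.01 against 8.18, 8.30 and 8.26. Both lay higher in every E2 tumour than in every placebo tumour. Their changes of 0.48 (limma adjusted p = 0.235) and 0.49 log2 (limma adjusted p = 0.213) did not pass on 6 arrays. They thus lay on the side of the constitutive subunits and not on that of Psmb8.

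The TAP transporter is made of the products of Tap1 and Tap2. Tap1 measured 6.34, 6.56 and 6.75 with placebo and 6.20, 6.29 and 6.27 with E2. All E2 values were lower than all placebo values, with placebo replicate 1 only just above the E2 tumours. The mean went from 6.55 ± 0.21 to 6.26 ± 0.046 (SD, n = 3), a change of -0.30 log2 (SE 0.12, interval -0.59 to -0.00026, limma adjusted p = 0.302), and -0.20 without placebo replicate 3 (limma adjusted p = 0.288). Tap2 measured 5.91, 6.06 and 6.25 with placebo and 5.99, 5.89 and 6.03 with E2. These groups overlapped, and the change of -0.10 log2 (SE 0.11, interval -0.37 to 0.17, limma adjusted p = 0.673) shrank to -0.013 without placebo replicate 3.

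Tap1 and Psmb9 are transcribed away from each other from a short stretch on chromosome 17, which is shown because these 2 members start at its opposite ends. In RefSeq on GRCm38.p6 the Tap1 start lies at 34187556 on the plus strand and the Psmb9 start at 34187330 on the minus strand. The 225 bases between them, chr17:34187331-34187555, are written on the plus strand from the Psmb9 end to the Tap1 end. Capitals mark the matches to ATTGG, the Y box or inverted CCAAT (written CCAAT where it lies on the minus strand), and to TGACG, the core of the X2 box bound by CREB and ATF factors.
Tap1 and Psmb9 shared stretch: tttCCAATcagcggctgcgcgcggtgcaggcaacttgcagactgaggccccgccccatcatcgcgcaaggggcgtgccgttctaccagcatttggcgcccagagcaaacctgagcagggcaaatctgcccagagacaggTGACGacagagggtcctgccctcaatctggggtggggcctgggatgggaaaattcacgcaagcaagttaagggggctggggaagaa
The changes of this gene pair with E2 were -0.30 for Tap1 and -0.21 for Psmb9 on 6 arrays, and -0.20 and -0.037 without placebo replicate 3.

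Tapbp encodes tapasin, which holds empty class I molecules at the TAP transporter. It measured 9.10, 9.01 and 8.87 with placebo and 9.09, 9.18 and 9.29 with E2. Tapbp was the 1 gene of the set that was lowest in placebo replicate 3 and the 1 gene with a higher mean in E2 tumours, although the groups overlapped. The change was 0.19 log2 (SE 0.10, interval -0.056 to 0.43, limma adjusted p = 0.409), and 0.13 without placebo replicate 3. Its partners in the loading complex gave differences of 0.088 log2 for Calr, the chaperone calreticulin (interval -0.21 to 0.39), 0.13 for Canx, the chaperone calnexin (-0.18 to 0.44), and 0.025 for Pdia3, the oxidoreductase ERp57 (-0.32 to 0.37). None of them passed the test (limma adjusted p = 0.745, 0.628 and 0.947). Without placebo replicate 3 the differences were 0.043, 0.24 and 0.14 log2, and again none passed. Only the interval of Canx (0.0095 to 0.48) then lay above 0.

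B2m encodes beta-2 microglobulin, the light chain that every class I molecule needs at the cell surface. It measured 10.50, 10.45 and 10.91 in placebo replicates 1, 2 and 3 and 9.89, 10.19 and 10.02 in the E2 tumours. The groups did not overlap, and the gap from the lowest placebo to the highest E2 tumour was wider than for Tap1 or Psmb8. Means were 10.62 ± 0.25 with placebo and 10.03 ± 0.15 with E2 (SD, n = 3), a 1.5-fold lower level with E2. On 6 arrays the change of -0.59 log2 (SE 0.16, interval -0.97 to -0.21) missed the threshold (limma adjusted p = 0.148). Without placebo replicate 3, B2m fell by 0.44 on the log2 scale (SE 0.11, interval -0.70 to -0.19, limma adjusted p = 0.0391), a 1.36-fold lower level. With repeated quantile normalization of all 6 arrays it was called as well (-0.64 log2, limma adjusted p = 0.0278), while the adjusted p ranged from 0.0278 to 0.428 over the alternatives tried. The direction was lower with E2 in all of them.

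**Figure D3:**
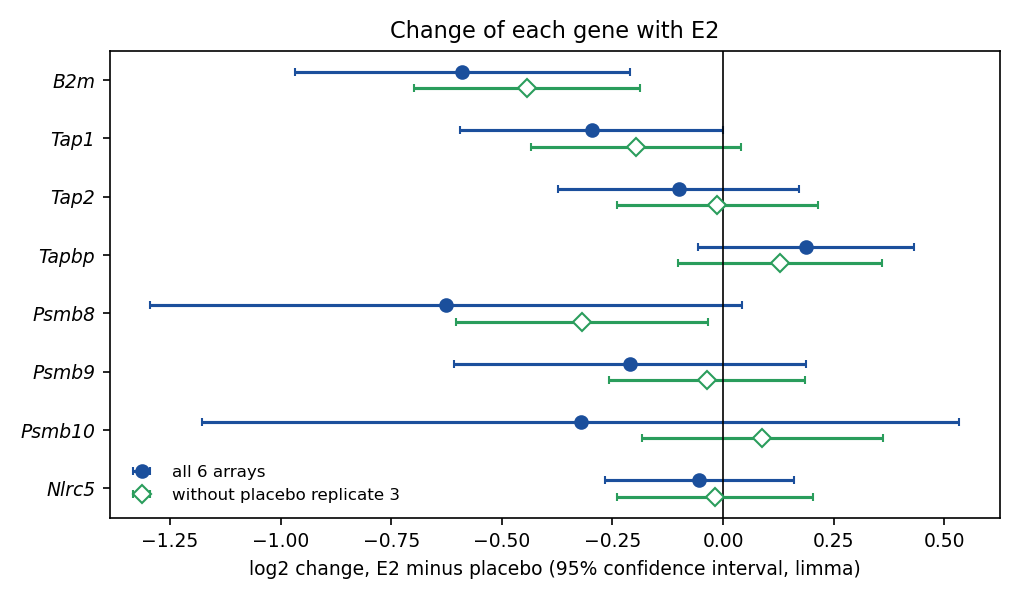
Log2 change, E2 minus placebo, of the 8 genes with 95% confidence intervals from limma, on all 6 arrays (filled circles) and without placebo replicate 3 (open diamonds). B2m keeps its interval below 0 in both, and the intervals of Psmb8 and Psmb10 narrow most when that array is left out.

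The stretch before the B2m start is shown because B2m was the member called without placebo replicate 3. It covers the 170 bases upstream of the RefSeq start on the plus strand of GRCm38.p6, chr2:122147517-122147686. Capitals mark, in order, the match to the interferon-stimulated response element (GAAA, any 2 bases, GAAA), then TGACG and ATTGG.
B2m upstream stretch: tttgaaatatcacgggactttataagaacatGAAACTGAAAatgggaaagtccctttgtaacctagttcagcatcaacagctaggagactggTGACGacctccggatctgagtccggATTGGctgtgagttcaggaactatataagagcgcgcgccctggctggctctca
Promoter windows of 300 bases, 250 of them upstream, were found for 8 of the 10 named genes, all but Tap2 and Nlrc5. On either strand the exact pattern given above for the interferon-stimulated response element matched in B2m alone, and in 3.99% of 27025 genes with such windows. The X2 core TGACG was in the windows of B2m, H2-D1, H2-K1, Psmb9 and Tap1, and in 20.8% of all windows, and ATTGG was in those and that of Tapbp, and in 37.4% of all windows. The windows of Tap1 and Psmb9 overlap and share their matches. TTCNNNGAA, the gamma-activated site, matched in Psmb8 alone (9.55% of all genes), and the oestrogen response element (GGTCA, any 3 bases, TGACC) in none of the 8 (0.074% of all genes). These are exact letter matches in a window, so elements that depart from the pattern are missed. They show no binding.

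Nlrc5 encodes the class I transactivator. It had 19 single-gene probe sets, and the probe set with the highest mean, which stands for the gene, measured 7.64, 7.69 and 7.77 with placebo and 7.75, 7.58 and 7.61 with E2. These values overlapped and differed by -0.053 log2 (SE 0.087, interval -0.27 to 0.16, limma adjusted p = 0.786). That probe set stood apart from the others, with a mean of 7.67 against 5.76 for the next. All 19 probe sets had a lower mean with E2, by 0.053 to 0.57 log2 units with a median change of -0.26, and in 12 of them every E2 tumour lay below every placebo tumour, as 11.4% of all genes did. Probe sets of 1 gene read the same RNA and are no replicates. With the mean of all 19 in place of the brightest, Nlrc5 changed by -0.26 log2 and still missed the threshold (limma adjusted p = 0.186). Without placebo replicate 3 the brightest probe set changed by -0.019 log2, and the median change over the 19 was -0.29.

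**Figure D4:**
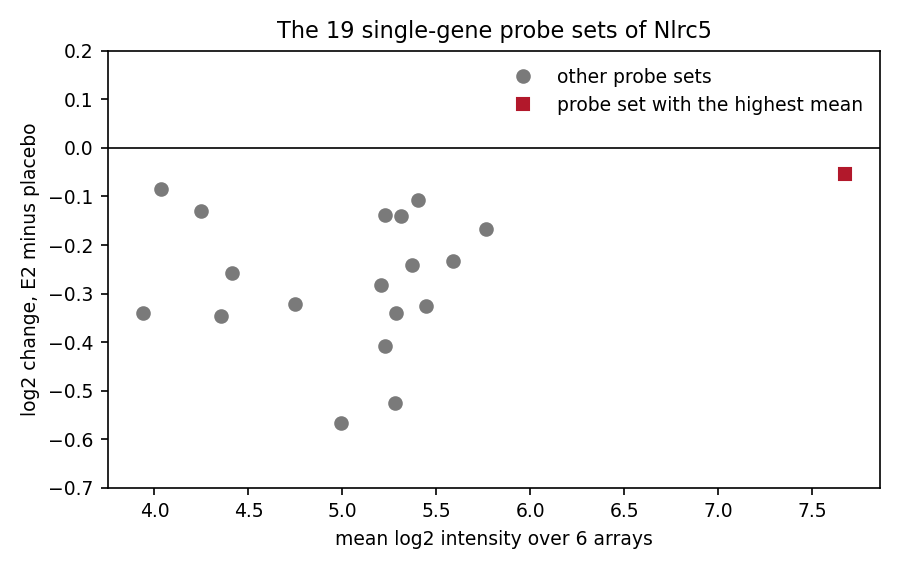
Log2 change, E2 minus placebo, against mean log2 intensity for the 19 probe sets of Nlrc5. All points lie below 0, and the probe set with the highest mean (square, 7.67) shows the smallest change, -0.053.

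The other genes of the class I pathway moved in both directions. The list of 33 measured genes holds, among others, class I-like heavy chains, loading factors, proteasome activators and regulators. It also holds Psmb5, Psmb6 and Psmb7, which were already counted among the constitutive subunits. Of the 33, limma called 0 on 6 arrays (276 of all genes, 1.38%). At an unadjusted p under 0.05, 3 were lower and 7 higher, beside 6.16% and 10.4% of all genes. The median change was 0.057 log2. Without placebo replicate 3, 4 fell and 5 rose, 9 in all against 11.6% of all genes, and the median was -0.035 log2. Psme1, Psme2, Psme3, Psmb5 and Psmb7 rose. H2-M3 and H2-T24, nonclassical class I heavy chains, fell by 0.54 and 0.99 on the log2 scale, Hfe, a class I-like protein of iron uptake that pairs with beta-2 microglobulin, by 0.60, and Irf2, an interferon regulatory factor, by 0.43. These genes were named after their values were seen, and probes of H2 genes may share sequence, so the values of single H2 genes are uncertain. H2-T24 measured 6.46 and 6.39 in placebo replicates 1 and 2 but 5.30 in replicate 3, within the E2 range of 5.28 to 5.76. Hfe measured 5.35, 5.58 and 5.36 with placebo and 4.94, 4.80 and 4.86 with E2, and on 6 arrays its change of -0.56 log2 missed the threshold (limma adjusted p = 0.0652).

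Genes of interferon gamma signalling gave no call on 6 arrays. Among 22 measured genes the median change was -0.13 log2. At an unadjusted limma p under 0.05, 6 were lower and 1 higher, beside 6.16% and 10.4% of all genes. Without placebo replicate 3 the median was -0.025 and 4 fell (Irf2, Irf8, Ifngr1 and Gbp4), beside 5.21% of all genes. These 4 were named after their values were seen. Irf1, the interferon-induced factor that acts on class I and immunoproteasome promoters, measured 6.54, 6.61 and 7.53 with placebo and 6.50, 6.53 and 6.63 with E2. It had the shape of Psmb10, with placebo replicate 3 far above 5 nearly equal tumours, and its change of -0.34 log2 (limma adjusted p = 0.561) went to -0.023 without that array. Ifng itself was dim, under the lower quartile on each of the 6 arrays.

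The profile most like that of the class I genes belonged to a gene of the same pathway. Each of the 8 genes was centred on its own mean and averaged over genes, giving -0.065, 0.016 and 0.43 in placebo replicates 1, 2 and 3 and -0.16, -0.12 and -0.097 in the E2 tumours. The nearest of all other named genes by root mean square difference over the 6 arrays was Tapbpl, the peptide editor TAPBPR, at 0.016 log2 units. It measured 5.32, 5.41 and 5.83 with placebo and 5.26, 5.30 and 5.29 with E2. Acap1, Mcpt1, Acot8, Adamtsl2, Il17rb, Nacc2, Dalrd3, Ces1c and Folh1 followed, at 0.024 to 0.045. Of these, Mcpt1 and Ces1c were dim, under the lower quartile on all 6 arrays, and Folh1 was so on 5. All 10 were highest in placebo replicate 3, the array with the largest deviation in the profile, and none passed the test (limma adjusted p = 0.385 to 0.564).

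Class II presentation genes had larger changes between the same tumours. Of 10 measured genes, 6 fell on 6 arrays, where limma called 0.326% of all genes lower, and the median change was -1.27 log2. The same 6 were called lower without placebo replicate 3, 3 without E2 replicate 2 and 0 without E2 replicate 1. Leaving out placebo replicate 1, placebo replicate 2 or E2 replicate 3 gave 4. The median stayed between -1.34 and -1.17 log2 when each array was left out. Over all genes, 16, 34 and 1039 were called lower without placebo replicates 1, 2 and 3. Without E2 replicates 1, 2 and 3 the all-gene counts were 0, 6 and 7. H2-Aa, a class II chain, measured 7.39, 7.57 and 7.55 with placebo and 5.10, 4.49 and 5.33 with E2, and Cd74, the invariant chain, 7.39, 7.65 and 7.81 against 5.397, 5.20 and 5.65. H2-Aa fell by 2.53 on the log2 scale (limma adjusted p = 0.00817) and Cd74 fell by 2.20 (limma adjusted p = 0.00574), against adjusted p = 0.0741 and 0.0673 by limma without E2 replicate 1, while the changes of the 8 class I genes ran from -0.63 to 0.19 with none past the test. Ciita, the class II counterpart of Nlrc5, was lower in every E2 tumour, by 0.34 log2 units, and missed the threshold (limma adjusted p = 0.133). Without placebo replicate 3 it was lower by 0.31 and missed it again (limma adjusted p = 0.0777). The difference between the class I and class II changes was not tested.

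**Figure D5:**
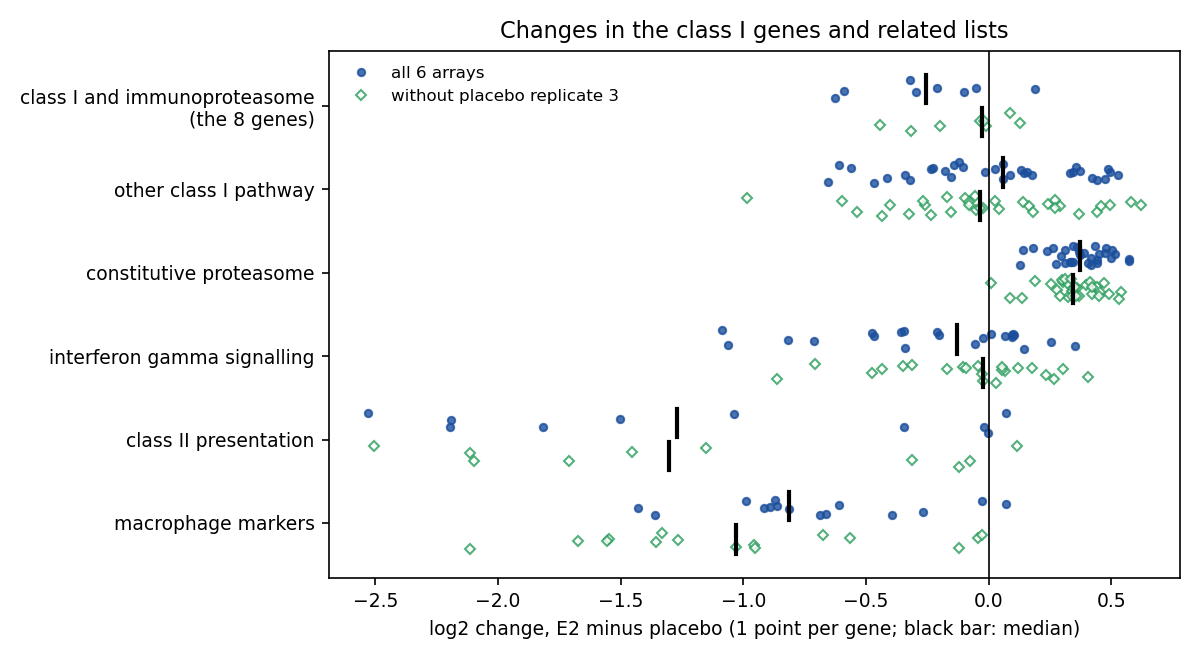
Log2 change, E2 minus placebo, of each measured gene in the class I set and 5 related lists, on 6 arrays (filled circles) and without placebo replicate 3 (open diamonds), with the median of each as a black bar. Medians on 6 arrays are -0.25 for the 8 class I genes, 0.37 for the constitutive proteasome, -1.27 for class II presentation and -0.81 for macrophage markers.

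Most markers of leukocytes, macrophages and T and B cells had lower means in the E2 tumours. Ptprc, the pan-leukocyte antigen CD45, measured 6.29, 6.47 and 6.04 with placebo and 5.06, 4.997 and 5.398 with E2 and fell by 1.11 on the log2 scale (limma adjusted p = 0.0388). Ptprc was also called lower without placebo replicate 3 (limma adjusted p = 0.0015). With any other array left out it was not called, at changes of -1.23 to -1.01 log2 and limma adjusted p of 0.0848 to 0.21. Of 15 macrophage markers 14 had lower means, with 0 called on 6 arrays by limma. At an unadjusted p under 0.05, 4 were lower, beside 6.16% of all genes. Without placebo replicate 3, 11 were called lower, beside 5.21% of all genes. Their mean level was 6.52 to 7.43 in placebo tumours and 6.16 to 6.54 in E2 tumours, and none of them lay below the lower quartile on all arrays. Placebo replicate 3, highest for 7 of the 8 class I genes, averaged 0.90 log2 units less than placebo replicates 1 and 2 over these markers. T and B cell markers had mean levels of 4.30 to 4.45 with placebo and 4.08 to 4.22 with E2, near the lower quartile of genes. Natural killer cell markers had mean levels of 4.10, 4.15 and 4.65 in placebo replicates 1, 2 and 3 and 4.09 to 4.11 with E2. Of 12 leukocyte and dendritic cell markers, 2 fell on 6 arrays, Ptprc and Coro1a, beside 0.326% of all genes. Without placebo replicate 3, 5 were called lower, beside 5.21% of all genes. Leaving out any one of the other arrays gave 0, where 0 to 34 of all genes were called lower. The mean level of the 12 was 5.33 to 5.51 with placebo and 4.92 to 5.09 with E2. The part of these cells in the B2m difference was not tested.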

How the data were processed

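RNA of 6 tumours, 3 per group by the sample titles, was run on 1 array each. Per the submitters' processing notes the authors used RMA, which gives 1 log2 intensity for each probe set and array; its software and version are not stated. RMA equalises the distributions of arrays, so foreign tissue on 1 array can shift its other genes, and no detection call was used. Of 34760 probe sets, 21640 had 1 gene symbol, 1321 several and 11799 were not listed. The probe set with the highest mean stood for a gene (19937 genes). The test was limma's moderated linear model (limma 3.58.1, R 4.3.3), two-sided, without covariates, and the steps were tested on simulated data. Members, lists and naming rules were chosen with earlier results of these data known. The rule named all members, the called genes of the class I pathway list, up to 6 called genes of other lists, the subunits Psmb5 to Psmb7, Psme1, Psme2, Irf1, Ciita and Ptprc, and the 10 genes nearest in profile; Calr, Canx and Pdia3 and others so marked were added after their values were seen. Alternatives were each array left out, the replicate number as a block, a filter at the 25th percentile, averaging each gene's probe sets, other scalings, variance settings, array weights and an adjusted p under 0.10; counts of class II and leukocyte genes under the first 2 were added after seeing the data. The tumours are called biological replicates, and p-values set the difference between groups against the variation between tumours. All tumours grew from the same culture, so variation between tumour lines is not covered.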

Additional observations from a re-analysis of the deposited data

How the results depend on the processing

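Counts of class I genes called by limma were 0 lower and 0 higher on 6 arrays. The lower count was 0 to 1 and the higher count stayed at 0 with each array left out, and 1 was lower (B2m) with repeated quantile normalization. Of the 33 other pathway genes, 0 to 4 were lower and 0 to 5 higher with each array left out. In the same list 1 was lower (Hfe) with repeated quantile normalization and with median centring, 4 were lower and 4 higher with array weights, and 2 lower and 1 higher at an adjusted p under 0.10. Over all genes, 65 were lower and 211 higher, against 0 to 1039 and 31 to 1276 with each array left out. Leaving out placebo replicate 3 gave 1039 and 1276, placebo replicate 1 gave 16 and 62, placebo replicate 2 gave 34 lower, and E2 replicates 1, 2 and 3 gave 0, 6 and 7 lower and 31, 37 and 37 higher. Median centring gave 342 higher, array weights 760 lower and 1026 higher, and an adjusted p under 0.10 gave 193 and 543. With the replicate number as a block 0 were lower and 10 higher, and 0 class I, 0 class II and 0 leukocyte and dendritic cell genes were called. Same-numbered arrays deviated from their group means with r = -0.029, -0.18 and -0.13 over genes, and 0 of 6 arrays were closest to their own number, so the numbers were not taken to pair tumours. Psmb10 ranged from -0.57 to 0.088 log2 with each array left out and reversed without placebo replicate 3, the other 7 genes kept their direction under all 14 alternatives, and only B2m crossed the threshold under any. The causes were not tested. The 3 subunit pairs kept their direction, with -1.38 to -0.76, -0.76 to -0.33 and -1.02 to -0.28 log2 when each array was left out. Their exact permutation p was then 0.1 to 0.4. The number of arrays limits the precision, and dim probe sets near the lower quartile have compressed changes.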

Other observations

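The granzyme genes Gzma and Gzmb, which encode products of cytotoxic lymphocytes, were high in 1 tumour. Its array was also the one with the intestinal epithelium markers. Of 10 natural killer cell markers, 7 were highest on that array, beside 27.9% of all genes, and 1 (Eomes) was lowest there. Gzma, granzyme A, measured 6.05 in placebo replicate 3 and 3.69 to 3.88 on the other 5 arrays, and Gzmb, granzyme B, 5.34 against 3.76 to 3.91. Prf1, perforin, measured 4.84 to 5.18 over all 6 arrays. The natural killer receptor genes Ncr1, Klrb1c and Klrd1 were under the lower quartile on all 6 arrays. Neither granzyme passed the comparison of E2 and placebo (limma adjusted p = 0.598 and 0.530).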
